A study of Mus musculus with 8 samples.

Results

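The genes described here carry glucose into platelets and break it down to lactate. They are the 10 genes whose symbol in the deposited tables is Slc2a1, Slc2a3, Hk1, Pfkl, Pfkp, Aldoa, Gapdh, Pgk1, Pkm or Ldha, out of 55487 genes in the tables. All 10 were found. The symbol Aldoa stands on 2 rows, and the row with identifier ENSMUSG00000114515 held 0 counts in every library, so Aldoa below is ENSMUSG00000030695. The RNA came from platelets of 8 male mice aged 13 weeks, 4 labelled Dnmt3a+/- (heterozygous for the DNA methyltransferase gene Dnmt3a) and 4 labelled WT, described as littermates and giving 1 library each. Platelets were pelleted from platelet-rich plasma after cardiac puncture, and Ter119 and CD45 beads were used to take out red cells and leukocytes. The labels name neither the origin of the mutant allele nor any treatment of either group. The comparison asks how platelet transcripts differ between the labels.

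Glycolysis splits glucose into pyruvate in the cytosol and yields ATP without oxygen, and lactate dehydrogenase turns the pyruvate into lactate. Platelets have no nucleus, carry RNA inherited from megakaryocytes, and are known for taking up more glucose and making more lactate when they are activated. Most steps can be carried out by several isozymes encoded by separate genes, and the isozymes that feed the pathway differ between tissues. The members cover the transporters GLUT1 (Slc2a1) and GLUT3 (Slc2a3), hexokinase 1 (Hk1), the liver and platelet types of phosphofructokinase (Pfkl and Pfkp), aldolase A (Aldoa), glyceraldehyde-3-phosphate dehydrogenase (Gapdh), phosphoglycerate kinase 1 (Pgk1), muscle-type pyruvate kinase (Pkm) and lactate dehydrogenase A (Ldha).

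The libraries held between 15185218 and 22160394 counts, of which the 10 members took 0.573% to 0.803%. The markers of platelets chosen for a check (10 genes, among them Pf4, Ppbp and Itga2b) took 3.89% to 4.85% of counts, while 5 T and NK cell genes took 0.000318% to 0.000662% and 7 neutrophil genes at most 0.000169%. Of these, Cd3e, Cd3g, Camp and Elane were at 0 in all 8 libraries, and 3 of the 5 and 5 of the 7 had counts. The targeted gene Dnmt3a was at 18.2 to 22.1 counts per 1000000 (CPM, with library sizes scaled by TMM) in the WT libraries. It was at 9.96, 11.5, 24.2 and 19.5 CPM in the libraries labelled Dnmt3a+/- replicates 1 to 4, so 2 of those 4 were not below the WT range and directions below are between labels. Mitochondrially encoded genes took 24.8% of counts in WT replicate 3, against 16.7% to 19% elsewhere, and TPM (transcripts per 1000000 transcripts of a library, corrected for length) shares its total with them. WT replicate 1 had 2.03% of its counts in 11 red cell genes (Bpgm among them), against 0.203% to 0.486% in the others.

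Glycolytic genes are textbook targets of hypoxia-inducible factor, which binds DNA at a core of ACGTG or GCGTG. Only the form ACGTG was searched for. The 250 bases before an annotated start are shown for 4 members at very different levels, because they hold ACGTG to different extents. These members are the barely detected Slc2a1, the moderate Ldha and Pgk1, and the abundant Gapdh. Sequences are from RefSeq on GRCm38.p6, read 5′ to 3′ on the gene's strand, and capitals mark ACGTG or its reverse complement CACGT. The windows are chr4:119108495-119108744 (plus strand) for Slc2a1, chr7:46845554-46845803 (plus strand) for Ldha, chrX:106186850-106187099 (plus strand) for Pgk1 and chr6:125165774-125166023 (minus strand) for Gapdh.
Slc2a1: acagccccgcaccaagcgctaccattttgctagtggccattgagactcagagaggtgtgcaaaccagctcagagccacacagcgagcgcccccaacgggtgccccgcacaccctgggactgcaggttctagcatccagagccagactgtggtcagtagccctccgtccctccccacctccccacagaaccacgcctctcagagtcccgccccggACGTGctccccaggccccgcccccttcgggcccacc
Ldha: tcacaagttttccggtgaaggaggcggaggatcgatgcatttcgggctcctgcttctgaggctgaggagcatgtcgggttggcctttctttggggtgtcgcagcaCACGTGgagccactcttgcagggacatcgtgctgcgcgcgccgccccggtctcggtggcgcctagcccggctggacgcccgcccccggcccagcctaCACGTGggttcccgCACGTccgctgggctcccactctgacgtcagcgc
Pgk1: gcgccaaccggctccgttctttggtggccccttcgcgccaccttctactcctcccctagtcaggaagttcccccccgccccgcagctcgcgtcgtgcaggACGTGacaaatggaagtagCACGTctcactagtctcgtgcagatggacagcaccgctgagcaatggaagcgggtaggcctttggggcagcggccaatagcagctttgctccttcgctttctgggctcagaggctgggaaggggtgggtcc
Gapdh: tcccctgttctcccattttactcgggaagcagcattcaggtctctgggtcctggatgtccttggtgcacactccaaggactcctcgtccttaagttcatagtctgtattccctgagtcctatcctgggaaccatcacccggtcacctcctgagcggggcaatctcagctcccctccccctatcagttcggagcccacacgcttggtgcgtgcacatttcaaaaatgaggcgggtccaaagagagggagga
The Ldha window shown held 5 matches, counting both strands, of which 4 lie in 2 copies of the palindrome CACGTG, where ACGTG and CACGT overlap. The other Ldha window in the table, chr7:46846832-46847081, held 0. The Pgk1 window held 2 matches, the Slc2a1 window 1 and the Gapdh window 0. The form GCGTG and its reverse complement CACGC were not counted. Both occur in the Gapdh window, and CACGC occurs in the Slc2a1 window. Over the whole table, 16.6% of 32851 windows of that length held at least 1 match and 0.502% held 4 or more. Of the 14 windows of the 9 members in the table, 6 held a match, which belong to Slc2a1, Ldha, Aldoa, Pkm and Pgk1. The 2 matching Aldoa windows overlap and share their match. These are matches of letters and say nothing of binding in megakaryocytes. The gene of the factor's oxygen-sensitive subunit, Hif1a, had 6 to 29 counts per library.

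Transcript levels along the pathway were very uneven. By mean TPM over the 8 libraries the order was Gapdh, Pkm, Slc2a3, Aldoa, Hk1, Pgk1, Ldha, Pfkp, Pfkl and Slc2a1, and it spanned 1129 ± 221 TPM (SD, n = 8) for Gapdh to 0.0638 ± 0.0553 TPM for Slc2a1. Gapdh ranked 107th of all genes in the tables by mean TPM, Pkm 119th and Slc2a3 140th. The ranges over libraries were apart between Aldoa and Hk1, between Pgk1 and Ldha, between Ldha and Pfkp and between Pfkl and Slc2a1. They overlapped for the neighbours Gapdh and Pkm, Pkm and Slc2a3, Slc2a3 and Aldoa, Hk1 and Pgk1, and Pfkp and Pfkl. Within libraries the order was steadier than the ranges show, since Gapdh was above Pkm in 8 of 8 and Hk1 above Pgk1 in 7 of 8.

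**Figure D1:**
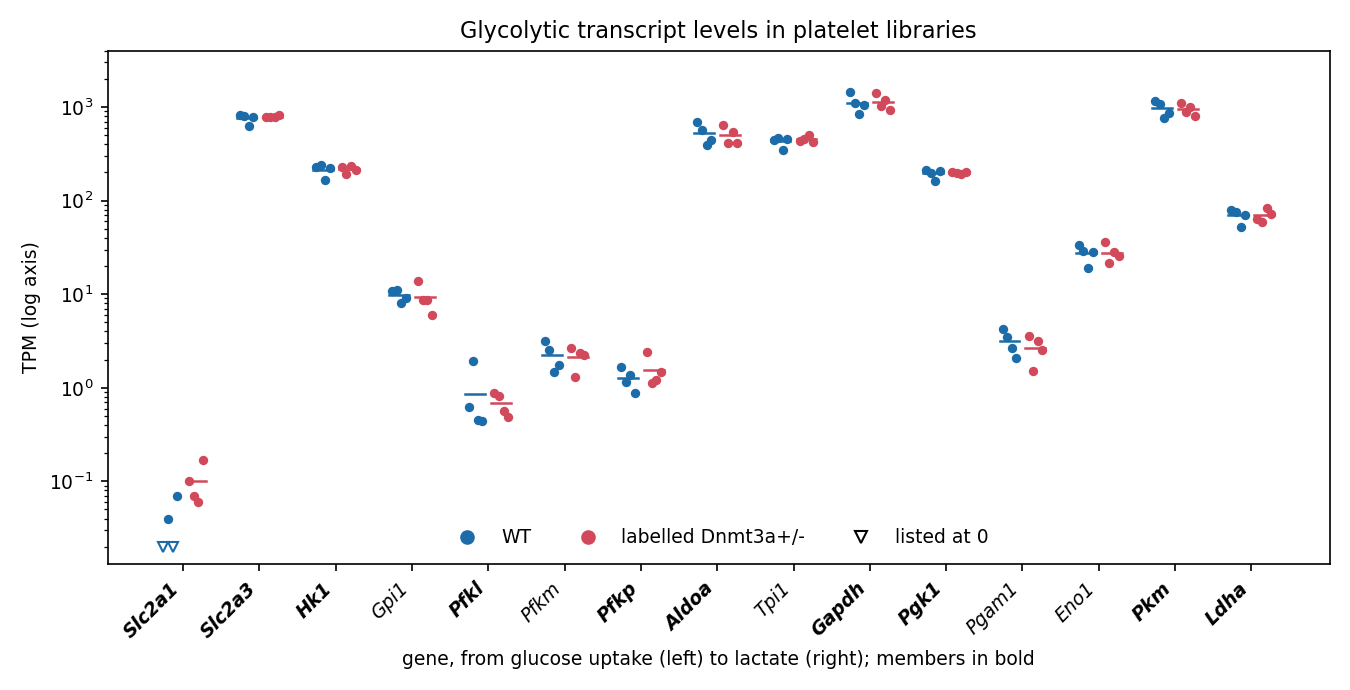
TPM on a log axis for each library (points) and each group with no value of 0 (bars, mean of 4) of 15 genes in the order of the pathway, WT in blue and libraries labelled Dnmt3a+/- in red. Phosphofructokinase genes and Pgam1 lie below 5 TPM between steps such as Hk1 and Gapdh at 166 TPM or more, and triangles mark the 2 WT libraries in which Slc2a1 was listed at 0.

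Slc2a3 led the glucose transporter transcripts. GLUT3, its product, is a high-affinity transporter best known from neurons and also present in platelets (ENSMUSG00000003153; chromosome 6, 122727809 to 122801640, minus strand, GRCm38). It stood at 2878, 2513, 2487 and 2673 CPM in WT replicates 1 to 4 and at 2783, 2617, 2630.3 and 2689 CPM in the libraries labelled Dnmt3a+/- replicates 1 to 4. The groups overlapped, and the second lay wholly inside the first. Slc2a1, which encodes the transporter of human red cells and of the blood-brain barrier (ENSMUSG00000028645; chromosome 4, 119108711 to 119137983, plus strand), had 0, 2, 0 and 2 counts in WT and 4, 2, 2 and 8 in the other group. Counting error alone allows up to 3 counts where 0 were seen, or 0.187 and 0.172 per 1000000 counts in WT replicates 1 and 3. Slc2a1 was too low for the main test, and with no filter on low counts its log2 fold change was 1.74 (edgeR adjusted p = 0.793). Of the summed TPM of 11 listed transporter genes, Slc2a3 held 93.294% ± 0.524 in WT and 92.990% ± 0.618 in the other group (SD, n = 4 each). Slc2a9, whose product mainly carries urate, held 5.69% to 7.52% per library at 56.3 ± 6.44 TPM (SD, n = 8), and Slc2a10 and Slc2a12 had no count.

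Transcripts of hexokinase, which traps glucose in the cell by phosphorylating it, were almost all of Hk1 (ENSMUSG00000037012; chromosome 10, 62268855 to 62379908, minus strand). Hk1 was at 618, 579.7, 513 and 583 CPM in WT and 599.5, 508, 614 and 535 CPM in the libraries labelled Dnmt3a+/-. These values overlap. Hk1 made up 99.782% to 99.965% of hexokinase TPM, with Hk2 at 0 to 5 counts and Hk3 at 1 to 18. An RNA transcribed from the opposite strand of the locus, Hk1os, had 14.7 to 19.1 CPM. The libraries were made with a stranded kit, per the labels, but no label states the strand setting of the counting, so some reads of the 2 genes may not be told apart.

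Phosphofructokinase commits the sugar to glycolysis and is the pathway's main control point. Its 3 genes together reached only 4.38 ± 1.17 TPM (SD, n = 8), with 3.08 in the lowest library and 5.98 in the highest. Gapdh TPM was 197 to 340.4 times that sum within a library. Pfkp, named for platelets (ENSMUSG00000021196; chromosome 13, 6579768 to 6648777, minus strand), was at 1.97, 2.33, 2.2 and 2.09 CPM in WT and at 3.1, 2.66, 2.49 and 2.99 in the libraries labelled Dnmt3a+/-. Every value of the second group lay above every value of the first. The counts behind them were 31, 43, 35 and 32 and then 47, 43, 41 and 69. Pfkl (ENSMUSG00000020277; chromosome 10, 77986947 to 78010083, minus strand) was at 2.04, 2.81, 1.69 and 1.11 CPM and at 2.44, 1.67, 1.03 and 1.3 CPM, from 17 to 52 counts, and the groups overlapped. The muscle gene Pfkm, which is no member, led the family with 51.4% ± 7.42 of its TPM in WT and 49% ± 7.67 in the other group (SD, n = 4). Pfkp held 30.169% ± 8.904 and 34.779% ± 4.577, and Pfkl 18.414% ± 10.647 and 16.269% ± 6.097.

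Pfkl and Pfkp were also the tested members whose implied transcript length varied most between libraries. The ratio of count to TPM, scaled by a line fitted in each library, gives the mean transcript length that the quantification used. The line was fitted to 217 or 218 of 244 genes with 1 annotated transcript, after outliers were dropped. All of them had more counts than Pfkl or Pfkp. The median error against annotated lengths was at most 1.93 bases, on largely the same genes as the fit. For Pgk1 the scaled ratio gave 1824 to 1827 bases and for Slc2a3 3898 to 3939. For Pfkl it ranged from 1906 bases in WT replicate 2 to 3758 in WT replicate 3, and for Pfkp from 1421 in WT replicate 1 to 2842 in WT replicate 4. In WT replicate 2 Pfkl was at 1.93 TPM and 34.3% of the family's TPM, against 11.5% to 14.3% in the other WT libraries. That library also had the most Pfkl counts (52), which were 25.7% of the family's counts against 14.8% to 20.9%. In shares of counts, Pfkl was at 19.6% ± 4.84 and 16.8% ± 5.17 and Pfkp at 23.1% ± 5.41 and 29.9% ± 4.51 (SD, n = 4).

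**Figure D2:**
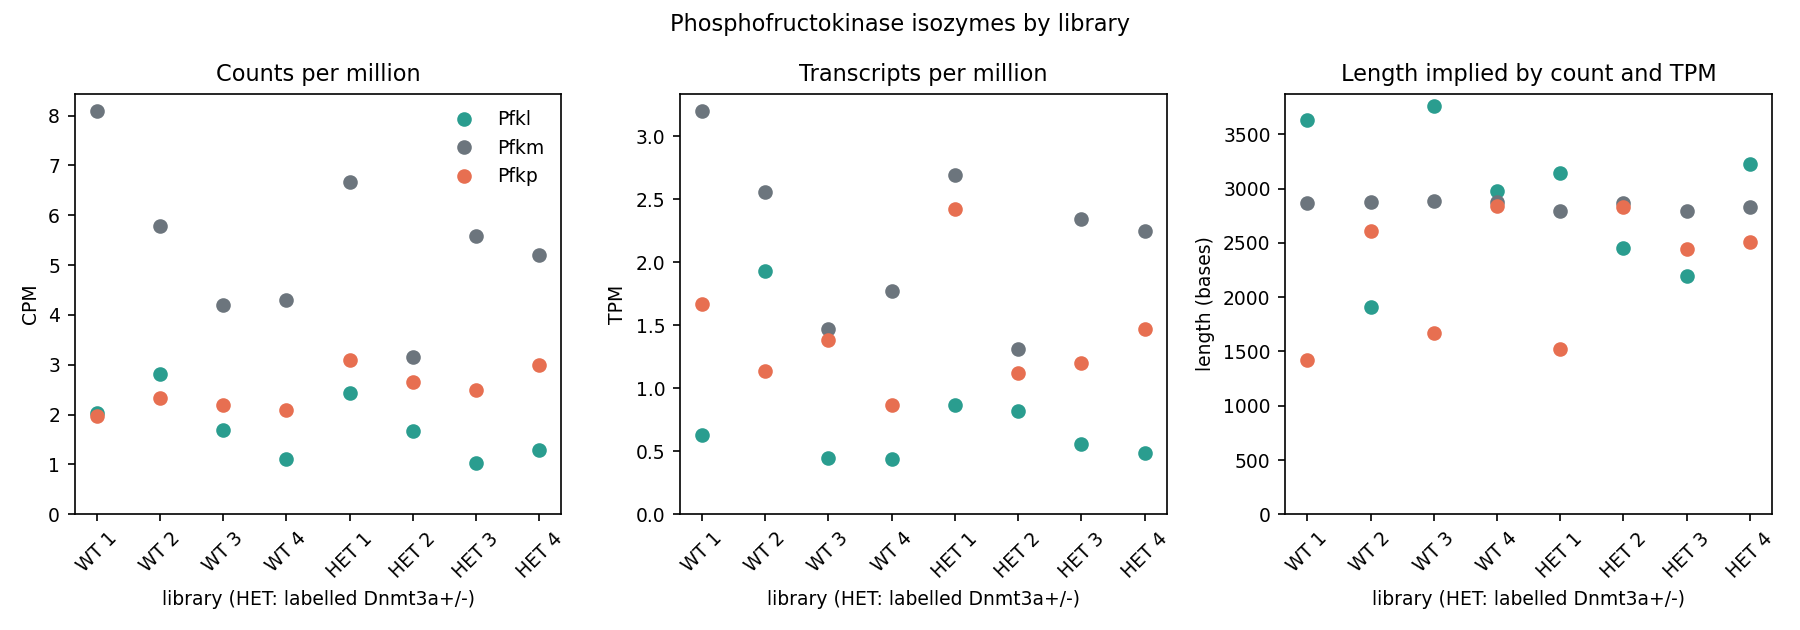
CPM, TPM and implied mean transcript length (bases) of Pfkl, Pfkm and Pfkp in each of the 8 libraries, with axes from 0. Pfkp CPM is higher in the 4 libraries labelled Dnmt3a+/- (2.49 to 3.1) than in the 4 WT libraries (1.97 to 2.33), while its TPM overlaps, and the implied length of Pfkl and Pfkp moves from library to library.

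Below phosphofructokinase the members were abundant. Aldolase A cuts the doubly phosphorylated sugar into triose phosphates (ENSMUSG00000030695; chromosome 7, 126795234 to 126800751, minus strand). Aldoa was at 838, 603, 544 and 528 CPM in WT and 775, 487, 644 and 466 CPM in the libraries labelled Dnmt3a+/-. Gapdh, which oxidizes the triose phosphate (ENSMUSG00000057666; chromosome 6, 125161715 to 125166467, minus strand), was at 1332, 941, 859 and 887 CPM and at 1309.6, 881, 1067 and 738 CPM. Pkm, whose enzyme makes pyruvate (ENSMUSG00000032294; chromosome 9, 59656368 to 59679375, plus strand), was at 2075, 1643, 1478 and 1356 CPM and at 1904, 1338, 1633 and 1164 CPM. In all 3 genes WT replicate 1 was the highest library, replicate 1 of the libraries labelled Dnmt3a+/- came next, and their replicate 4 was the lowest. Gene counts do not separate the splice forms of Pkm known as M1 and M2.

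Pgk1 and Ldha were less abundant and had other libraries at the low end. Pgk1, the first step that yields ATP (ENSMUSG00000062070; chromosome X, 106187100 to 106203699, plus strand), was at 333, 277, 288 and 308 CPM in WT and 320.0, 291, 291 and 295 CPM in the libraries labelled Dnmt3a+/-. Ldha (ENSMUSG00000063229; chromosome 7, 46841475 to 46855627, plus strand) was at 106, 88.6, 78.3 and 89.5 CPM and at 83.7, 74.4, 105 and 86.6 CPM. Both genes overlapped between the groups. Ldha made up at least 98.974% of lactate dehydrogenase TPM, and Ldhb, the heart type, had 0 to 17 counts.

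Reads of processed pseudogenes bear on Gapdh more than on the other members. Among annotated mouse pseudogenes, 269 matched the Gapdh transcript over at least 200 bases at 85% identity or more, and 79 of them had a count. They summed to 7014 counts over the 8 libraries, 5.22% of the 134260 counts of Gapdh, and Gm5069 alone gave 86.1% of that sum. The percentage was 4.49% to 5.76% in the WT libraries and 4.89% to 6.25% in the others. For Pgk1 the same sum was 0.495% of the gene's counts, and for Aldoa, Pkm and Ldha it was at most 0.0908%. Slc2a1, Slc2a3, Hk1, Pfkl and Pfkp had no matching pseudogene. How the authors' counting divided reads shared with these copies is not known for single reads.

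Among the abundant members, Gapdh, Aldoa and Pkm had the highest transcript GC content and varied most between libraries. These 3 genes have transcripts of 56.6%, 56.9% and 57.7% GC, and the SD of their log2 CPM over the 8 libraries was 0.30, 0.31 and 0.28, against a median of 0.18 for the 1972 genes over 20 CPM. Pgk1 (49.7% GC) and Slc2a3 (49.4% GC) had SDs of 0.088 and 0.07. Among all genes over 20 CPM, the 228 with a GC content over 56% and up to 60% had a median deviation of 0.25 in WT replicate 1, 0.16 in the library labelled Dnmt3a+/- replicate 1 and -0.25 in the library labelled Dnmt3a+/- replicate 4 (log2 CPM, from the mean of the 8 libraries). Gapdh deviated by 0.44, 0.41 and -0.41 in the same 3 libraries. Genes with 40% GC or less went the other way, at -0.30, -0.11 and 0.14. In WT replicate 2 the class over 56% and up to 60% was at 0.069, while Gapdh was at -0.063. With the median of each GC class subtracted, a step chosen after seeing the data, the SD was 0.15 for Gapdh, 0.14 for Aldoa and 0.12 for Pkm. Hk1, at 56.4% GC, had an SD of 0.11 before and after. All these GC values are of the longest coding transcript. The implied mean length was shorter for Gapdh (1083 to 1167 bases against 1420) and Pkm (1822 to 2049 against 2432). The same held for Hk1 (2962 to 3135 against 4278). It was closer for Aldoa (1414 to 1483 against 1549), Slc2a3 (3898 to 3939 against 3959) and Pgk1 (1824 to 1827 against 1825). The GC content of the transcripts counted is thus not known for Gapdh, Pkm and Hk1. WT replicate 1 is also the library with the most red cell transcripts, and the part of those in its high values was not tested. The part of GC content in the spread was not tested either.

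**Figure D3:**
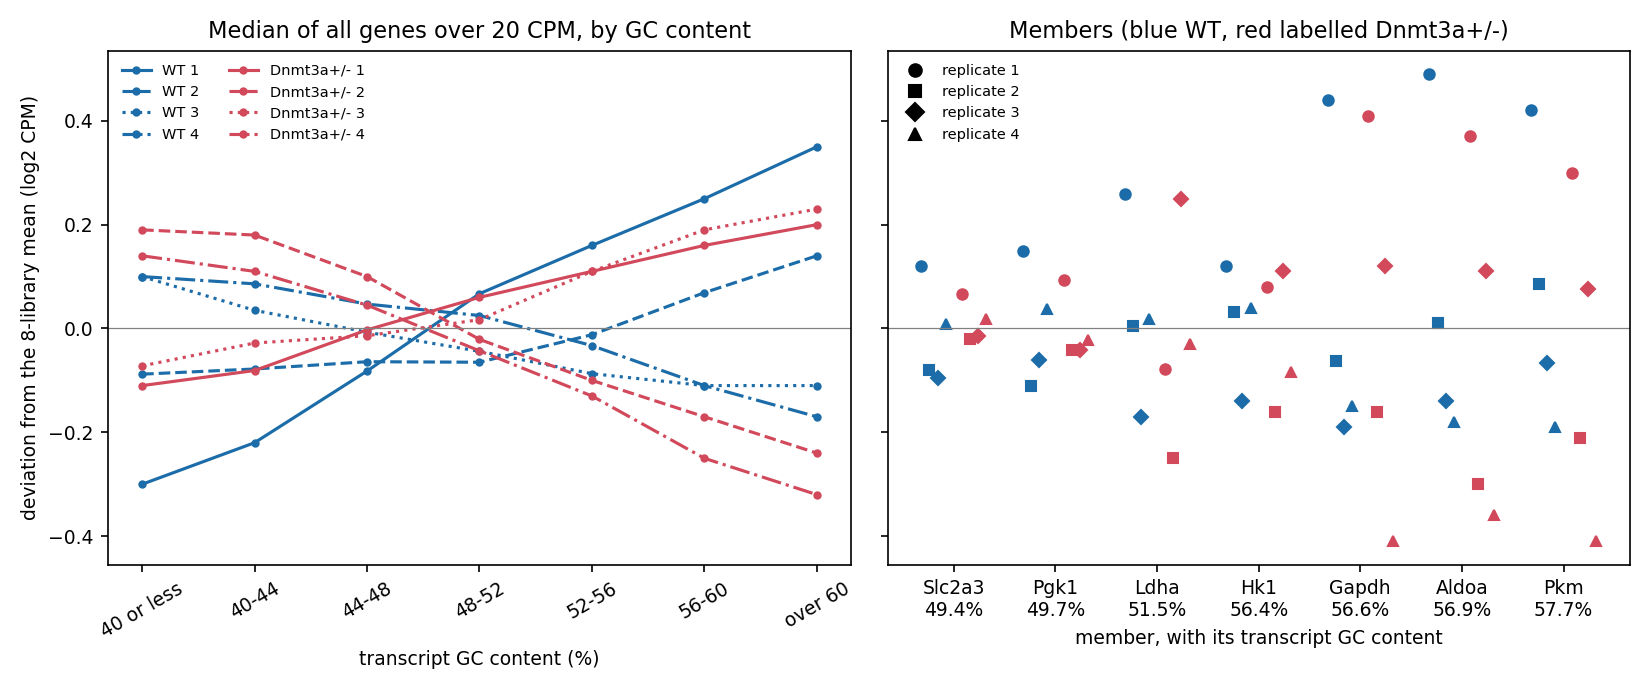
Left, median deviation (log2 CPM, from the mean of 8 libraries) of genes over 20 CPM by transcript GC content, a line per library; right, the same deviation of 7 members ordered by GC content, a point per library. WT replicate 1, high at high GC on the left (0.25 between 56% and 60%), is high for Gapdh, Aldoa and Pkm on the right. WT replicate 2, at 0.069 on the left, is at -0.063 for Gapdh, 0.011 for Aldoa and 0.085 for Pkm. Slc2a3 and Pgk1 stay within 0.15 of their mean.

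The genes most like the 3 most variable members were found by the root mean square difference of centred log2 CPM over the 8 libraries. For Aldoa they were Scamp5 (difference 0.04) and Fis1 (0.041), for Gapdh Scamp5 (0.056) and Fbxw8 (0.057), and for Pfkl Tmem219 (0.16) and Plbd2 (0.18). Scamp5 and Fis1 had means of 38.7 and 98.4 CPM. Fbxw8, Tmem219 and Plbd2 were low, at 1.82, 2.24 and 1.52 CPM, so counting error bears on their place as nearest genes. The transcripts of all these nearest genes had 54% to 58.2% GC, a common range. Of the 1972 genes over 20 CPM, 446 had over 52% and up to 56% GC and 228 over 56% and up to 60%. The SDs of Aldoa, Gapdh and Pfkl themselves were 0.31, 0.30 and 0.49.

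No member differed between the labels by the test across all genes. The edgeR quasi-likelihood test called 0 of the 9 tested members at an adjusted p under 0.05, where it called 0% of 7362 genes, and 0 of 9 at an unadjusted p under 0.05, where 4.92% of genes were. No member was called either with no filter on low counts (1.35% of genes called), with DESeq2 (0.122%), with the robust edgeR fit (0.0136%), without WT replicate 1 (1.75%) or without replicate 2 of the libraries labelled Dnmt3a+/- (0.013%). Of the 9 log2 fold changes (labelled Dnmt3a+/- minus WT), 2 were positive and 7 negative, with a median of -0.024 against -0.005 over all genes tested. Over all genes tested 3611 were positive and 3751 negative. Without WT replicate 1 the median of the members was 0.042. The 4 members with the narrowest intervals were Slc2a3, Pgk1, Hk1 and Ldha. Slc2a3 had a log2 fold change of 0.023 (SE 0.089, 95% interval -0.17 to 0.22), Pgk1 -0.0092 (interval -0.21 to 0.19), Hk1 -0.024 (interval -0.24 to 0.19) and Ldha -0.05 (interval -0.33 to 0.23). The intervals were wider for the other abundant members, at -0.42 to 0.41 for Gapdh, -0.50 to 0.33 for Aldoa and -0.50 to 0.26 for Pkm. Pfkl had a log2 fold change of -0.26 (interval -1.03 to 0.50). The edgeR adjusted p was 0.998 or 0.999 for each of these 8 genes. The signs of Slc2a3, Hk1, Aldoa, Gapdh, Pgk1, Pkm and Ldha changed under at least 1 other scaling or without a library.

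Pfkp had the largest positive fold change of the 9 members in the main test. Its mean was 2.15 ± 0.151 CPM in WT and 2.81 ± 0.285 CPM in the libraries labelled Dnmt3a+/- (SD, n = 4 each), a log2 fold change of 0.39 (SE 0.19, interval -0.025 to 0.80, edgeR unadjusted p = 0.063, adjusted p = 0.987). It was the 1 member of 9 whose groups did not overlap, where 2.54% of all tested genes did not overlap and 1.37% did so with higher values in the same direction. The difference rests on 31 to 69 counts per library, and in TPM the groups overlapped, at 0.87 to 1.67 and 1.12 to 2.42.

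**Figure D4:**
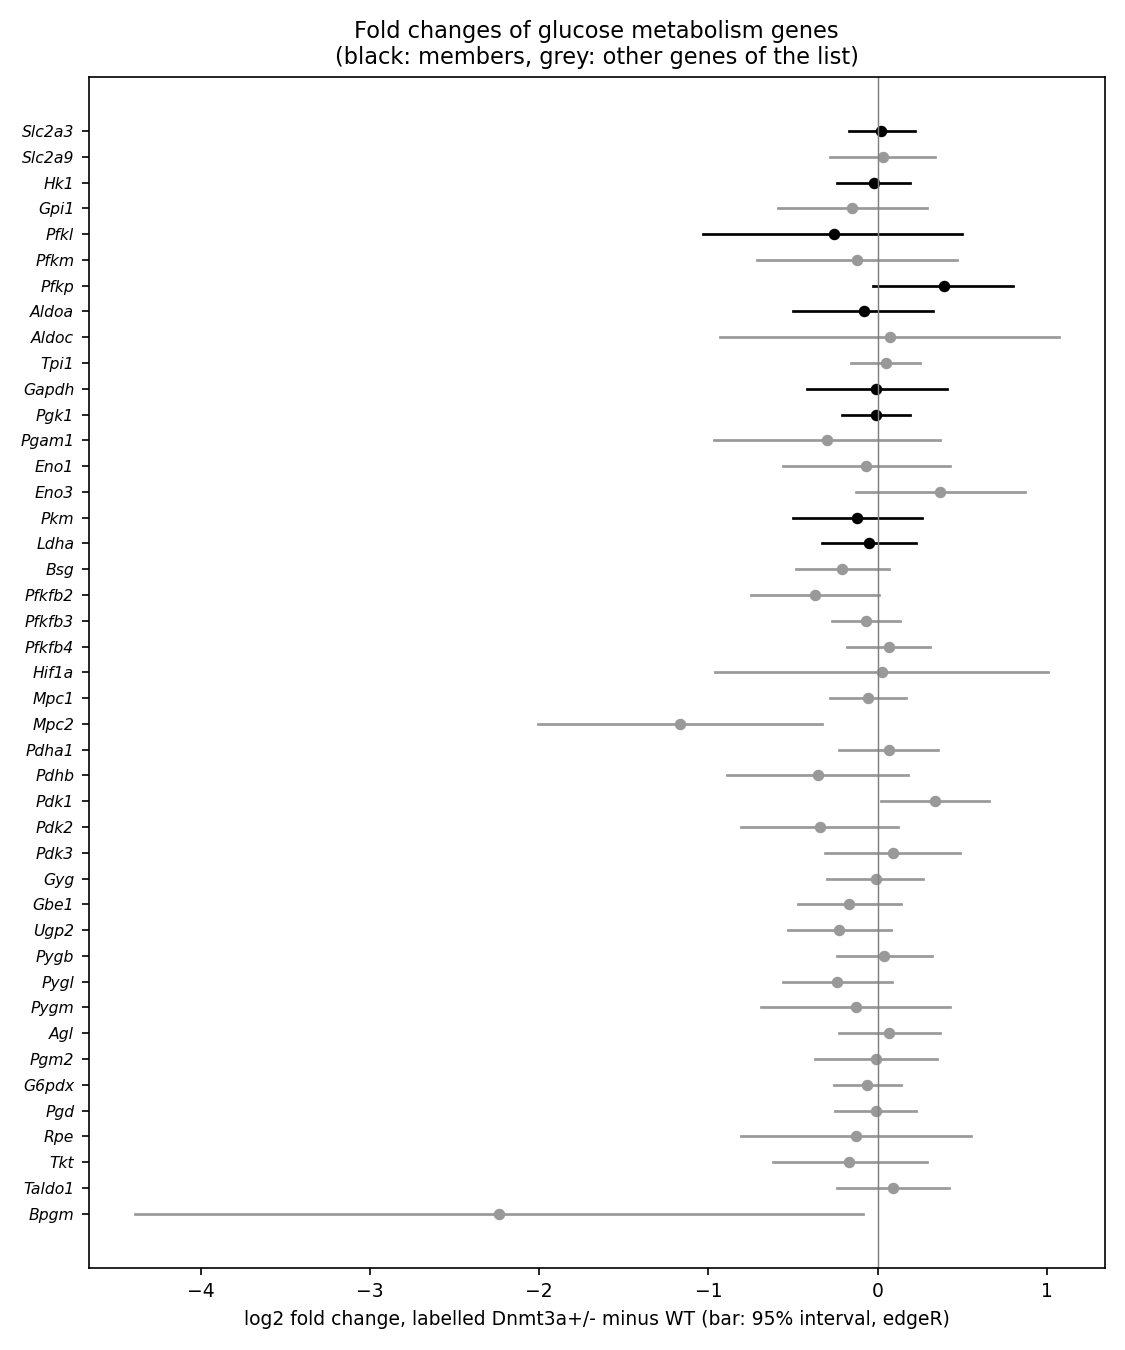
Log2 fold change (labelled Dnmt3a+/- minus WT) with its 95% interval from edgeR for tested genes of glucose metabolism, members in black. The intervals of all 9 tested members include 0, and that of Pfkp reaches from -0.025 to 0.80.

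No isozyme share was called different between the labels by an exact two-sided permutation test over the 70 arrangements of the libraries. The smallest p of that test is 0.0286, so after adjustment over 7 shares a difference in a single share could not have passed 0.05. Over the 7 shares tested, the exact permutation p ran from 0.0857 for Pkm of pyruvate kinases to 0.971 for Hk1 of hexokinases, and the lowest adjusted p was 0.6. Aldoa held 99.465% ± 0.447 of aldolase TPM in WT and 99.779% ± 0.089 in the other group (SD, n = 4; exact permutation p = 0.171). Aldoc, the brain type, had 3 to 16 counts. Without WT replicate 1 the difference in the Aldoa share was 0.449 percentage points (exact permutation p = 0.0286, unadjusted and the smallest that 3 against 4 libraries allow). The liver transporter Slc2a2 had 0, 16, 64 and 34 counts in WT and 8, 0, 9 and 0 in the other group. Transcripts of 10 hepatocyte genes took 0.00172%, 0.0353%, 0.137% and 0.117% of counts in WT replicates 1 to 4 and 0.000277% to 0.0132% in the other group, and their part in the Slc2a2 counts was not tested. Slc2a2 was too low for the main test and passed without a filter on low counts (log2 fold change -2.74, edgeR adjusted p = 0.0464), where 1.35% of genes did. Pklr, the pyruvate kinase of liver and red cells, had 0 to 8 counts.

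The other steps of the pathway showed where else transcripts were scarce. Pseudogene matches were searched for members only, so reads shared with copies of the genes of these steps were not assessed. Glucose-6-phosphate isomerase (Gpi1) was at 9.56 ± 2.38 TPM, phosphoglycerate mutase (Pgam1) at 2.91 ± 0.886 and enolase 1 (Eno1) at 27.6 ± 5.54, while triosephosphate isomerase (Tpi1) was at 441 ± 44.4 TPM (SD, n = 8). Among the 4 enolases Eno3 was at 2.74 ± 1.27 TPM, and Eno1b and Eno2 had at most 5 counts in a library. Gapdhs, Pgk2 and Pgam2, genes of sperm or muscle, had no count. The fold changes of Gpi1, Tpi1, Pgam1 and Eno1 lay between -0.30 and 0.048 on the log2 scale, each with an edgeR adjusted p of 0.998.

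A wider list of 76 genes added glycogen, pentose phosphate, lactate export, pyruvate import and regulators of flux. Of the 44 with enough counts, 0 passed the adjusted threshold, 14 fold changes were positive and 30 negative, and the median was -0.058 against -0.005 over all tested genes. Over all tested genes 3611 were positive and 3751 negative. Without WT replicate 1 the median of the list was 0.021. At an unadjusted edgeR p under 0.05 there were 3 of 44 beside 4.92% of all genes, 1 of them higher (1.73% of all genes) and 2 lower (3.19%). Mpc2, a subunit of the mitochondrial pyruvate carrier, was at 2.42, 1.19, 1.13 and 1.04 CPM in WT and 0.725, 0.372, 0.607 and 0.825 CPM in the other group. Its log2 fold change was -1.17 (SE 0.38, edgeR adjusted p = 0.703). The groups did not overlap, which held for 1.17% of all tested genes in that direction, and the values rest on 6 to 38 counts. Its partner Mpc1 stood at 123 ± 7.91 TPM against 2.32 ± 1.6 TPM for Mpc2 (SD, n = 8). Pdk1, a kinase that holds back pyruvate dehydrogenase, was at 63.4, 63, 50.6 and 65.8 CPM in WT and 89, 88.9, 70.1 and 60.1 CPM in the other group, with a log2 fold change of 0.34 (SE 0.14, edgeR adjusted p = 0.981). These groups overlap. Bpgm, whose enzyme makes bisphosphoglycerate in red cells, reached 158 CPM in WT replicate 1, the library with the most red cell transcripts (a sum that includes Bpgm). The remaining WT libraries were at 5.74 to 9.47 CPM and the others at 7.18 to 15.6 CPM. The log2 fold change of Bpgm was -2.24 (SE 0.98, edgeR adjusted p = 0.986). Without WT replicate 1 its log2 fold change was 0.39, and the part of red cell RNA was not tested. Taldo1, an enzyme of the pentose phosphate branch, was above every member by mean TPM, at 1991 ± 343 TPM (SD, n = 8) and had a log2 fold change of 0.09 (SE 0.15, edgeR adjusted p = 0.998).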

How the data were processed

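Gene expression in mouse platelets was measured by RNA sequencing of polyadenylated RNA. The deposited tables give, for each gene and library, an estimated count written as a whole number and a TPM value that sums to 1000000 per library. The tools cutadapt, STAR, RSEM and DESeq2 and the build mm10 are listed in the submitters' processing notes, with no roles, annotation release or strand setting. RSEM-type estimates divide reads shared between transcripts and near-identical genes, which can move low genes and Gapdh.

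Estimated counts were tested with edgeR 4.0.16 under R 4.3.3 (TMM factors, filterByExpr with minimum count 10 and minimum total 15, glmQLFit, glmQLFTest, Benjamini-Hochberg over 7362 genes, threshold 0.05). The SE of a fold change was derived from edgeR's F. No replicate block was used. The labels call the replicates biological, from 4 mice a group. No pair of libraries was alike within counting noise (chi-square per degree of freedom at least 10.3). CPM uses the TMM library sizes. Isozyme shares were tested by an exact permutation test. In 3 simulations, 200 genes drawn at random from the 7362 were changed between groups of 4. There edgeR found 7.96% of the 1.5-fold changes, 39.3% of the 2-fold and 82.8% of the 4-fold ones, and called 17 unchanged genes. Counts were drawn gene by gene, without the shifts that many genes of a library share. These percentages are over genes of all levels and do not give the power for any member. Alternatives were RLE and upper-quartile factors, other filters, DESeq2 1.42.0, a robust fit, limma 3.58.1 on log2(TPM + 0.5) and log2(TPM + 0.1), leaving out each library, and the replicate block.

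Coordinates, GC content and pseudogenes come from GENCODE M21 (GRCm38, which mm10 names), which holds 55141 of the 55487 identifiers. GC content is that of the longest coding transcript. Pseudogenes were matched with blastn 2.17.0. The members and lists were chosen with earlier results of these data known. Named genes are all members, the other genes of their families and of the steps from glucose to lactate, list genes with an unadjusted p under 0.05 and the genes closest to the 3 most variable members. Some genes of the lists are not reported here. Mpc1, Taldo1, Hif1a, Hk1os and Gm5069 were chosen after their values were seen. Of the marker lists, adipocyte genes took 0.000595% to 0.00476% of counts, striated muscle genes at most 0.000326%, monocyte genes at most 0.000932% and B cell genes at most 6.92e-05%.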

Additional observations from a re-analysis of the deposited data

Results flagged for a closer look

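In 58 groups of 4 values, 1 library stood apart from the other 3 by a gap beyond Dixon's 95% critical value in 9 cases. About 1 in 20 groups would do so if the values were independent and normally distributed. Low counts, shares close to their upper limit and groups from the same libraries do not meet that. No excess over chance can therefore be read from the 9 cases. Among the members, Pgk1 was at 320.0 CPM in the library labelled Dnmt3a+/- replicate 1 and at 291 to 295 in the rest of that group. The Slc2a3 share of transporter TPM was 94.073% in WT replicate 4, where the remaining WT libraries had 92.966% to 93.133%. The Pfkl share of phosphofructokinase TPM was 34.281% in WT replicate 2, the library in which the implied Pfkl length was shortest, and 11.5% to 14.3% in the remaining WT libraries. The Aldoa share of aldolase TPM was 99.912% in the library labelled Dnmt3a+/- replicate 4 and 99.721% to 99.749% in the rest. The Pkm share of pyruvate kinase TPM was 99.995% in the library labelled Dnmt3a+/- replicate 1, from 2 counts of Pklr, which had 0 counts in the rest.

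Among the other genes, Aldoc was at 0.188 CPM in WT replicate 3 against 0.782 to 0.892. Mpc2 was at 2.42 CPM in WT replicate 1 against 1.04 to 1.19. Bpgm reached 158 CPM in WT replicate 1 against 5.74 to 9.47 and, among the libraries labelled Dnmt3a+/-, stood at 15.6 CPM in replicate 1 against 7.18 to 7.99. In both groups the library with the highest Bpgm also had the most red cell transcripts (2.03% and 0.486% of counts). Bpgm is itself among the red cell genes summed in these percentages.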

How the results depend on the processing

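The number of genes past the threshold was 0 with edgeR (362 at an unadjusted p under 0.05), 250 with no filter on low counts, 9 with DESeq2 and 1 with the robust fit. It was 0 to 135 when each library was left out, and 135 without WT replicate 1 and 1 without the library labelled Dnmt3a+/- replicate 2. No member passed under any of these fits, and the lowest adjusted p of a member over all alternatives was 0.745. Of 162 member fold changes recomputed, 29 changed sign, none of Pfkl or Pfkp among them. The log2 fold change of Gapdh was 0.0071 with upper-quartile factors, 0.0076 with no filter, 0.036 with limma at both pseudocounts and 0.026 after subtracting GC medians. That of Pgk1 was 0.013 with upper-quartile factors, 0.0046 with no filter, and 0.032 and 0.033 with limma. That of Hk1 was 0.03 with limma at both pseudocounts and 0.018 after subtracting GC medians, and that of Ldha 0.0074 and 0.0075 with limma. Leaving out each library gave ranges of -0.0023 to 0.067 for Slc2a3, -0.072 to 0.014 for Hk1, -0.23 to 0.086 for Aldoa, -0.16 to 0.16 for Gapdh, -0.048 to 0.042 for Pgk1, -0.24 to 0.015 for Pkm, -0.14 to 0.032 for Ldha, -0.52 to -0.013 for Pfkl, 0.35 to 0.45 for Pfkp and -2.60 to 0.39 for Bpgm. The cause of these changes was not tested. Bpgm passed with no filter (edgeR adjusted p = 0.0167).

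For isozyme shares, the Slc2a3 difference was 0.0464 percentage points in shares of counts. Leaving out each library gave -0.0421 to 0.0236 for Hk1, -5.13 to 3.14 for Pfkl, -0.0358 to 0.306 for Ldha and 0.101 to 0.449 for Aldoa. With the replicate block edgeR called 0 genes, the Pfkp log2 fold change was 0.38 (adjusted p = 0.804), and the block changed no call of a member. The share differences tested as pairs were -0.304 for Slc2a3, -2.15 for Pfkl and 4.61 for Pfkp, with a smallest possible exact p of 0.125. The replicate numbers share no label beyond the number, and deviations of same-numbered libraries correlated at -0.0371, 0.0814, 0.158 and -0.168, so the numbers were not taken as pairs. Depth limits Slc2a1 and the phosphofructokinases.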
